A study of Mus musculus with 4 samples.

Results

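Imprinted genes are genes of which a cell uses mainly the copy inherited from one parent. A list of 40 of them was read from the FPKM matrix by gene symbol, out of 23924 genes listed there, and all 40 symbols were found. The list covers 17 imprinted domains or single loci on 10 chromosomes. From textbook knowledge, 21 members are usually expressed from the paternal allele and 18 from the maternal allele, and the main transcript of *Gnas* comes from both alleles in most tissues. Of the 18, *Ube3a* is known as maternal from neurons and *Blcap* from a brain isoform.

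RNA-seq was performed on tail tip fibroblasts (TTF) of the mouse line C57BL/6J-TgBAC8-2087, which carries *Xist* and other sequence of the X-inactivation center as a transgene in an autosome. The 2 TG libraries came from male Tg2087/+ animals, hemizygous for the transgene, and the 2 WT libraries from their male +/+ littermates. All cells had been immortalized with SV40 large T and were tetraploid, so every library describes cultured, transformed cells of 1 litter and 1 transgenic line. Whether libraries of the same genotype were separate animals or cultures is not in the labels, so a p-value here measures the spread between these libraries, which may be technical, and the age of the mice was not given in the sources used here. Totals of both alleles were measured, and no value below tells which parental copy an RNA came from.

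At an imprinted domain, a control region receives DNA methylation in the germ line of one parent, and this mark is carried through the divisions of the embryo. The methylated and unmethylated copies then use different genes of the domain, often through a long non-coding RNA or an insulator. Many imprinted genes act on fetal growth, and several are highly expressed in embryonic mesenchyme and fall after birth. ZFP57, a zinc finger protein that keeps the mark in place, binds the letters TGCCGC when they are methylated.

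The sequences that bear on the members with the strongest differences are shown here, as given by RefSeq on GRCm38.p6. Of the 40 members, 33 had at least 1 promoter window in the table used, 46 windows in all, and *H19*, *Cdkn1c*, *Peg10*, *Sgce*, *Impact*, *Rtl1* and *Klf14* had none. TGCCGC or its reverse complement GCGGCA stood in the 250 bases upstream of the start in 8 of the 46 windows, which belong to 7 members (*Zdbf2*, *Mest*, *Copg2*, *Nap1l5*, *Zim1*, *Plagl1* and *Meg3*). Over all 32851 promoter windows of the same length, 8.68% held it. The median window of the members held 10 CpG dinucleotides and the median window of all genes held 6. *Mest* has 3 windows in the table, of which 2 hold the hexamer and 1, with 7 CpG, does not. A window of *Mest* that holds it is shown because the gene fell in TG. It lies on the plus strand at chr6:30737800-30738049, holds 14 CpG, and has the hexamer 2 times. It was picked for holding the most hexamers among the windows of *Mest*. Setting it against the 0.874% of all windows with 2 or more is therefore not a like comparison. The window of *Dlk1*, at chr12:109452573-109452822 on the plus strand, is shown beside that of *Mest* because *Dlk1* differed in the other direction. It holds 8 CpG and no hexamer. Both windows lie within the gene spans given below, so each belongs to a start further along the gene than the outermost one. Only promoter windows were searched, not control regions outside them, and methylation was not measured. Capitals mark the hexamer.
*Mest* promoter: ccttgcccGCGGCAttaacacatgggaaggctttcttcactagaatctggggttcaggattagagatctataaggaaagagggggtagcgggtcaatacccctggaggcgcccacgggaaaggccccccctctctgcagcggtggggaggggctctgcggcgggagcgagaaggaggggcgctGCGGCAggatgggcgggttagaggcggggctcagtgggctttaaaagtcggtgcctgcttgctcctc
*Dlk1* promoter: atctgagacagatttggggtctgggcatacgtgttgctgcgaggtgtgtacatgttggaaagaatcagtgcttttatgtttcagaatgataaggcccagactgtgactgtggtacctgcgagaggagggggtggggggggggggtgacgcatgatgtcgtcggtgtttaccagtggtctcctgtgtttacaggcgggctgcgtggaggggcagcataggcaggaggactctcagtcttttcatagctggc

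*Mest* and *H19*, the members called in either direction, are also hosts of microRNAs, which the size-selected libraries of this kind do not measure. The mature sequences are given to show what these host transcripts carry. The precursor of miR-335 lies inside *Mest*, with the 5p strand at chr6:30741314-30741336 on the plus strand. The precursor of miR-675 lies inside *H19*, with the 5p strand at chr7:142577112-142577133 on the minus strand. Capitals mark the seed, bases 2 to 8, and no seed is shared among these.
mmu-miR-335-5p: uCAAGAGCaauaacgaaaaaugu
mmu-miR-335-3p: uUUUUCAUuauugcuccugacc
mmu-miR-675-5p: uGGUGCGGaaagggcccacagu
mmu-miR-675-3p: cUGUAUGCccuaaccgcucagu

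The matrix gives FPKM, in which fragments are divided by the length of the gene and by the depth of the library. Whole reads behind the FPKM were recovered from the ratios between libraries, with totals between 9465712 and 14639946 reads per library. *Xist* itself was at 0 and 0.108 FPKM in WT 1 and WT 2 and at 2.31 and 2.28 FPKM in TG 1 and TG 2, higher in both libraries labelled TG. All 8 fibroblast markers were expressed above the filter, with a summed FPKM of 5596 to 6007 in WT and 5191 to 5642 in TG, and of these *Col1a1* and *Pdgfrb*, a collagen chain and a growth factor receptor, were lower in TG at an adjusted p of 0.0491 and 0.0165 (limma). *Pdgfra*, another growth factor receptor of the list, was higher without overlap, at 0.100 and 0.307 FPKM in WT against 0.823 and 1.13 FPKM in TG (limma adjusted p 0.218), and *Vim* was also higher without overlap (limma adjusted p 0.737). *Col1a2*, *Col3a1* and *Thy1* were lower without overlap. In all, 5 of the 8 markers were lower and 2 higher without overlap, where 20.3% and 30.2% of all genes tested were. *Pdgfra* passed the filter, a mean of 0.5 FPKM, only through TG (mean 0.203 FPKM in WT and 0.978 FPKM in TG). It could pass only by differing, so its place among the 2 higher carries no weight. Several defining markers of other cell types were at 0 in every library: *Krt5* and *Krt14* of keratinocytes, *Myod1*, *Myog*, *Myf5* and *Pax7* of the muscle lineage, *Ptprc* and *Adgre1* of blood cells and macrophages, *Adipoq* and *Plin1* of adipocytes, and *Sox10* of the Schwann cell and melanocyte lineages. Other markers on these lists were expressed, among them *Cd68* of macrophages at 5.12 to 12.1 FPKM, *Fabp4* of adipocytes at 1.67 to 4.77 FPKM and *Krt10* of keratinocytes at 1.40 to 2.45 FPKM. The 4 neuron markers summed to 31.9 to 34.2 FPKM in WT and 23.1 to 34.2 FPKM in TG, mostly from the tubulin *Tubb3*, and the 4 endothelial markers to 0.174 to 0.567 FPKM and 0.0360 to 0.126 FPKM.

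Of the 40 members, 37 had a value above 0 in at least 1 library and 24 reached the mean of 0.5 FPKM needed for testing. Members that passed only through the genotype in which they were high would have had to differ, and a single tested member, *Airn*, had 1 genotype mean under that filter. The tested members had a median level of 5.68 FPKM, against 10.4 FPKM over all 11524 genes tested. Levels were uneven: 7 members were at 10 FPKM or above, 14 lay between 1 and 10 FPKM, and 3 were below 1 FPKM. *Gnas*, *Grb10* and *Tssc4* together made up 67.0% of the summed FPKM of the list.

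**Figure D1:**
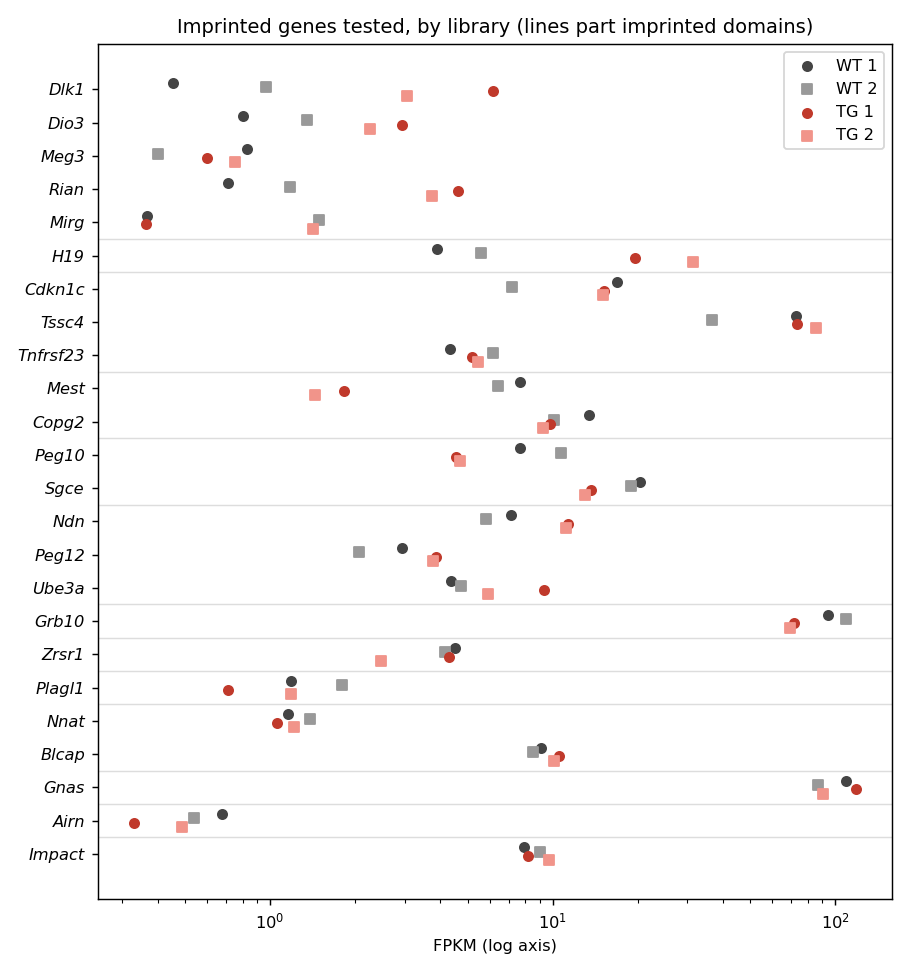
FPKM on a log axis for the 24 imprinted genes tested, 1 row per gene and 1 point per library (circles for library 1, squares for library 2, grey for WT, red for TG); thin lines part the imprinted domains. *Gnas*, *Grb10* and *Tssc4* sit at the right, and in *H19*, *Dlk1*, *Rian* and *Mest* the grey and red points are widely separated.

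TG was compared with WT for all genes above the filter by limma on log2(FPKM + 0.5), a scale that understates changes of low genes, with Benjamini-Hochberg adjustment. Calls needed an adjusted p below 0.01 together with a log2 fold change of 1 or more in either direction. Among the members, *Mest* was called down-regulated and *H19* up-regulated, 1 of 24 in each direction, against 0.469% and 0.607% of all genes tested. At an adjusted p under 0.05, 1 member was lower and 3 were higher (*H19*, *Dlk1* and *Rian*), where 1.54% and 2.59% of all genes were. The WT and TG libraries did not overlap for 6 members that were lower in TG and for 9 that were higher, and they overlapped for 9. Over all genes tested, 20.3% were lower and 30.2% were higher without overlap, near the shares of the members. The median log2 fold change of the 24 members was 0.083, beside 0.071 over all genes. The median size of the log2 fold change was 0.50 for the members and 0.26 for all genes. With 2 libraries on each side, the smallest p of an exact permutation test is 0.333.

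**Figure D2:**
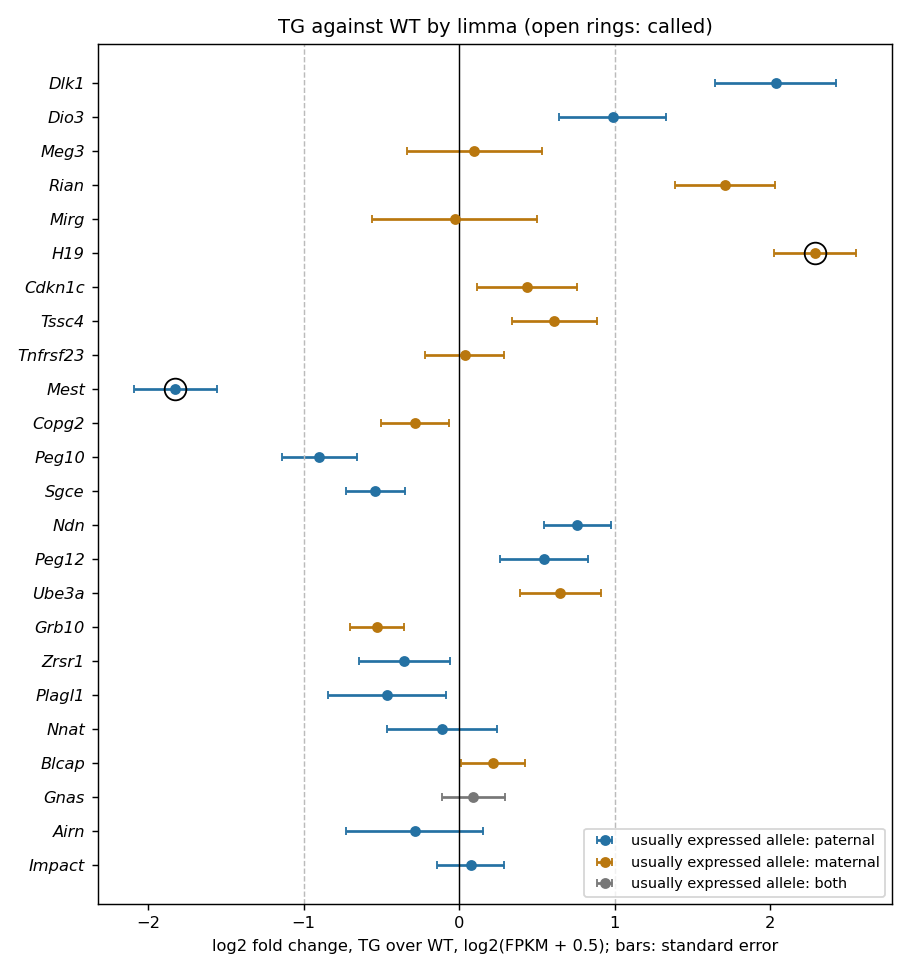
Log2 fold change of TG over WT on the log2(FPKM + 0.5) scale, with its standard error from limma, for the 24 imprinted genes tested (n = 2 libraries per genotype); colours give the allele usually expressed, open rings mark called genes and dashed lines a log2 fold change of 1 in size. *H19* at 2.29 and *Mest* at -1.82 carry the rings, and *Dlk1* and *Rian* lie beyond the dashed line without one.

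*H19* and *Igf2* share a domain on Chr 7, where *H19* is a maternally expressed long non-coding RNA that is abundant in embryonic mesenchyme. *H19* (chr7:142575530-142578146) stood at 3.90 and 5.56 FPKM in WT 1 and WT 2 and at 19.5 and 31.3 FPKM in TG 1 and TG 2, from 79, 174, 498 and 740 reads. Both TG libraries lay well above both WT libraries. Its mean was 25.4 ± 8.31 FPKM in TG and 4.73 ± 1.17 FPKM in WT (SD, n = 2), 5.37-fold higher, and the log2 fold change was 2.29 with an SE of 0.27 and an adjusted p of 0.0013 (limma). Without WT 1 or WT 2 the adjusted p was 0.0456 or 0.0401, which ends the call. *Igf2*, the paternally expressed growth factor of the same domain, was low, at 0.169 and 0.187 FPKM in WT against 0.153 and 0.0413 FPKM in TG, with 7, 12, 8 and 2 reads. It was too low for the test, so no change or lack of change of *Igf2* can be stated. In bulk RNA, more cells that express a gene and more RNA per cell cannot be told apart, here and for every gene below.

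*Mest*, a paternally expressed gene of Chr 6 that encodes an enzyme-like protein of the endoplasmic reticulum and is known from embryonic mesoderm, fell in TG. *Mest* (chr6:30733506-30748466) was at 7.68 and 6.42 FPKM in WT 1 and WT 2 and at 1.82 and 1.44 FPKM in TG 1 and TG 2, from 191, 247, 57 and 42 reads. The genotypes did not overlap, and the libraries of each genotype lay close together. Its mean went from 7.05 ± 0.890 FPKM in WT to 1.63 ± 0.265 FPKM in TG (SD, n = 2), a reduction of 76.9%, with a log2 fold change of -1.82, an SE of 0.27 and an adjusted p of 0.0052 (limma). The adjusted p was 0.0788 without WT 1, 0.0961 without WT 2 and 0.0144 without TG 2, each above the threshold of 0.01, and the log2 fold change lay between -1.95 and -1.70 with any single library left out.

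Of the neighbours of *Mest*, *Copg2* did not pass the test and *Klf14* was below the filter. *Copg2*, which encodes a coat protein subunit of transport vesicles and shares 913 bases of its 3′ end region with *Mest*, had 13.5 and 10.1 FPKM in WT against 9.77 and 9.24 FPKM in TG. The libraries did not overlap, but WT 2 was close to TG 1. Its log2 fold change was -0.28 with an SE of 0.22 and an adjusted p of 0.533 (limma). *Klf14*, the maternally expressed zinc finger gene of the domain, had a single read, in TG 1. The strand setting of the authors' counting was not given in the sources used here, so reads in the shared stretch cannot be assigned to *Mest* or *Copg2* with certainty.

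The Dlk1-Dio3 domain on Chr 12 has 6 members over 828.6 kb. Of its 5 tested genes, 3 were higher in TG 1 and TG 2 than in either WT library, where 30.2% of all genes tested were. Its paternally expressed genes are protein coding, and its maternally expressed genes are long non-coding RNAs that host small RNAs. *Dlk1*, a Notch-like transmembrane protein that restrains adipocyte differentiation, had 0.453 and 0.967 FPKM in WT 1 and WT 2 and 6.15 and 3.04 FPKM in TG 1 and TG 2, from 20, 66, 342 and 157 reads. The genotypes did not overlap, although the TG libraries differed from each other by 0.91 on the log2(FPKM + 0.5) scale. The log2 fold change of *Dlk1* (chr12:109452485-109463336) was 2.04 with an SE of 0.39 and an adjusted p of 0.0172 (limma), which misses the threshold of 0.01. Leaving out 1 library, the adjusted p of *Dlk1* was 0.124 without WT 1, 0.116 without WT 2, 0.0800 without TG 1 and 0.0058 without TG 2, so only the last of these passed.

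*Rian*, a maternally expressed host of small nucleolar RNAs, was likewise higher in TG and likewise missed the threshold. Its FPKM was 0.708 and 1.17 in WT 1 and WT 2 and 4.62 and 3.74 in TG 1 and TG 2. Both TG libraries were above both WT libraries. The log2 fold change of *Rian* (chr12:109603945-109661716) was 1.71 with an SE of 0.32 and an adjusted p of 0.0161 (limma). With 1 library left out, the adjusted p of *Rian* lay between 0.0281 and 0.107. *Dlk1* is usually expressed from the paternal copy and *Rian* from the maternal copy, so higher totals were found among genes of either kind.

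*Dio3*, the enzyme that inactivates thyroid hormone, lies at the far end of the domain and had 0.799 and 1.35 FPKM in WT against 2.93 and 2.26 FPKM in TG. The libraries did not overlap, and the log2 fold change was 0.99 with an SE of 0.34 and an adjusted p of 0.143 (limma). *Rtl1*, a retrotransposon-derived gene of the placenta, was below the filter, with 0 and 1 read in WT and 12 and 6 reads in TG. *Meg3*, the maternally expressed long non-coding RNA next to the control region, stood apart from these with 0.825 and 0.400 FPKM in WT against 0.596 and 0.748 FPKM in TG. Both TG values of *Meg3* fell between the WT values, and its log2 fold change was 0.099 with an SE of 0.43 and an adjusted p of 0.929 (limma). *Mirg*, a microRNA host, had 0.368 and 1.48 FPKM in WT against 0.365 and 1.41 FPKM in TG. In *Mirg* the difference between libraries of the same genotype was far larger than that between genotypes, and its log2 fold change was -0.028 with an SE of 0.53 and an adjusted p of 0.984 (limma). Whether *Rian* and *Meg3*, which are often described as parts of one long transcription unit, differed from each other in their response was not tested. *Rtl1* overlaps *Meg3* by 6830 bases and *Rian* by 474 bases, so its few reads carry the same uncertainty of strand.

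**Figure D3:**
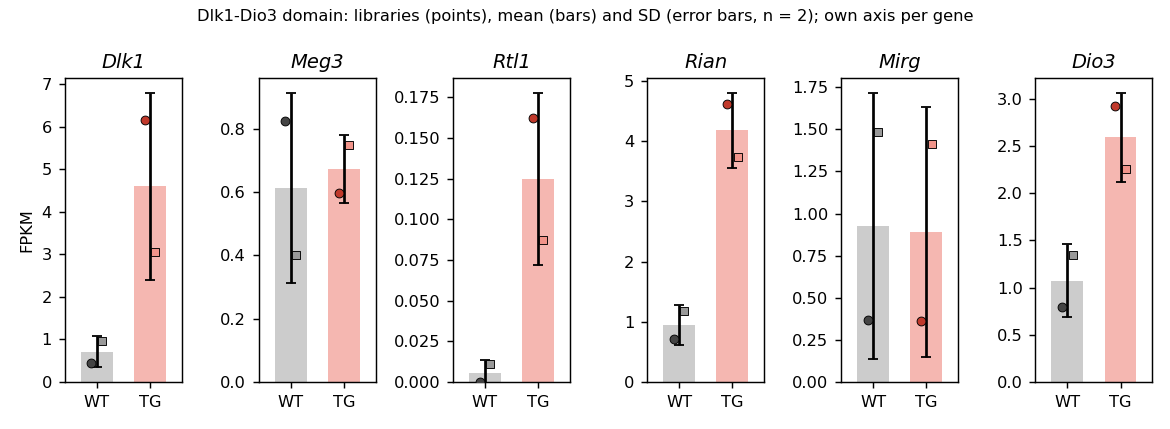
FPKM of the 6 members of the Dlk1-Dio3 domain in WT and TG, each on its own linear axis from 0, with points for libraries (circles 1, squares 2), bars for the mean and error bars for the SD (n = 2). *Dlk1*, *Rtl1*, *Rian* and *Dio3* have both TG points above both WT points, and *Meg3* and *Mirg* do not.

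In the Peg10-Sgce domain of Chr 6, both tested members were lower in TG without overlap, as were 20.3% of all genes tested. Neither passed the test. *Peg10*, a paternally expressed gene derived from a retrotransposon, had 7.67 and 10.7 FPKM in WT 1 and WT 2 and 4.56 and 4.70 FPKM in TG 1 and TG 2. The genotypes did not overlap, and the log2 fold change of -0.90 (SE 0.24) gave an adjusted p of 0.0666 (limma). *Sgce*, the epsilon-sarcoglycan of the cell membrane, is transcribed away from *Peg10* on the same paternal copy and had 20.3 and 18.96 FPKM in WT against 13.7 and 13.04 FPKM in TG. It too was lower without overlap, at a log2 fold change of -0.54, an SE of 0.19 and an adjusted p of 0.147 (limma). The maternally expressed members were scarcely transcribed. *Asb4*, part of a ubiquitin ligase, had no read in either WT library and 14 and 13 reads in TG 1 and TG 2. Its mean FPKM in TG was 4.50-fold that of a floor of 3 reads per WT library. With all genes above 0 tested, the log2 fold change of *Asb4* was 0.77 (limma adjusted p 0.142). *Ppp1r9a*, a neurabin of the actin skeleton, had 16 and 12 reads in WT and 11 and 41 reads in TG, so its genotypes overlapped. The floor covers counting error in WT only, and that of the TG reads was not taken in.

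Among the 5 members of the Prader-Willi/Angelman domain of Chr 7, the 3 that were tested stood higher in TG and none was called. *Ndn*, encoding necdin, a growth-restraining protein of the MAGE family, had 7.10 and 5.82 FPKM in WT against 11.3 and 11.1 FPKM in TG. The libraries did not overlap and those of TG were nearly equal, with a log2 fold change of 0.76, an SE of 0.22 and an adjusted p of 0.0810 (limma). *Peg12*, an intronless gene beside *Ndn*, had 2.93 and 2.06 FPKM in WT against 3.87 and 3.77 FPKM in TG (log2 fold change 0.55, SE 0.28, limma adjusted p 0.319). *Ube3a*, a ubiquitin ligase imprinted in neurons and used from both copies elsewhere, had 4.36 and 4.75 FPKM in WT against 9.29 and 5.93 FPKM in TG. All 3 were higher without overlap, as were 30.2% of all genes tested, and for *Ube3a* the TG libraries differed by 0.61 on the log2(FPKM + 0.5) scale, about as much as its log2 fold change of 0.65 (SE 0.26, limma adjusted p 0.202). *Snrpn*, a splicing protein gene at the control region, had 5 and 3 reads in WT and none in TG, and *Magel2* had 3 reads, all in WT 2. *Snurf*, which shares its gene body with *Snrpn*, was listed at 0, so the authors' counting could have split or dropped their reads. A count of 0 allows up to 3 reads, so a difference in *Snrpn* or *Magel2* was not detectable at this depth.

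The Kcnq1 domain of Chr 7 has the most members, 7 over 719.6 kb, and none of its 3 tested genes passed the test. *Cdkn1c*, which encodes the cell cycle inhibitor p57, had 16.9 and 7.16 FPKM in WT against 15.2 and 15.1 FPKM in TG. The TG libraries agreed and lay between the WT libraries, which differed by 1.18 on the log2(FPKM + 0.5) scale. *Tssc4*, a gene of RNA splicing, had 72.4 and 36.7 FPKM in WT against 73.4 and 85.4 FPKM in TG. It was higher without overlap, but WT 1 nearly reached TG 1, and the log2 fold change was 0.61 with an SE of 0.27 and an adjusted p of 0.253 (limma). The log2 fold change of *Tssc4* was 0.13 without WT 2 and 1.10 without WT 1, neither past the test. *Tnfrsf23*, a decoy receptor for a death ligand, had 4.35 and 6.15 FPKM in WT against 5.20 and 5.44 FPKM in TG, with both TG values between the WT values. Its log2 fold change was 0.035 (SE 0.25), and the sign turned under other scalings of the libraries.

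The other members of this domain were low. *Kcnq1ot1*, the paternally expressed long non-coding RNA that starts at the control region, had 95, 120, 116 and 101 reads in WT 1, WT 2, TG 1 and TG 2. Spread over its long gene body these came to between 0.0984 and 0.120 FPKM, the 4 libraries being alike and the genotypes overlapping. It lies inside *Kcnq1*, which was listed at 0 in every library. *Phlda2*, a growth-restraining gene of the placenta, had 9 reads in TG 1, 1 read in WT 2 and none in the others. *Slc22a18*, a transporter, and *Ascl2*, a transcription factor of the trophoblast, were listed at 0 throughout. The libraries were poly(A)-selected, and what part this had in the levels of the long non-coding RNAs *Kcnq1ot1*, *Airn* and *Meg3* was not tested.

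*Grb10*, an adaptor protein that restrains insulin-like growth factor signalling, was among the most abundant members. It had 94.6 and 109.6 FPKM in WT 1 and WT 2 and 71.7 and 69.2 FPKM in TG 1 and TG 2. The libraries did not overlap and those of TG were close together, with a mean of 102.1 ± 10.6 FPKM in WT and 70.4 ± 1.74 FPKM in TG (SD, n = 2). The log2 fold change was -0.53 with an SE of 0.17 and an adjusted p of 0.127 (limma). *Gnas*, the stimulatory G protein alpha subunit, was the other abundant gene, with 109.1 and 86.9 FPKM in WT against 118.8 and 90.7 FPKM in TG. Its libraries overlapped, and the difference within each genotype exceeded that between them.

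The Nnat-Blcap pair of Chr 2 and the remaining single loci showed small differences. *Blcap*, a small membrane protein gene, had 9.06 and 8.54 FPKM in WT against 10.5 and 10.2 FPKM in TG. It was higher without overlap at a log2 fold change of 0.22 (SE 0.20, limma adjusted p 0.612). *Nnat*, encoding neuronatin and lying inside *Blcap*, had 1.16 and 1.38 FPKM in WT against 1.06 and 1.22 FPKM in TG, and the genotypes overlapped. *Plagl1*, a zinc finger factor that regulates other imprinted genes, had 1.18 and 1.80 FPKM in WT against 0.711 and 1.18 FPKM in TG, and its ranges met at TG 2 and WT 1. The log2 fold change of *Plagl1* was -0.46 with an SE of 0.38 (limma adjusted p 0.561).

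*Zrsr1*, a splicing factor gene, had 4.50 and 4.15 FPKM in WT against 4.29 and 2.48 FPKM in TG, with TG 2 below the others. *Impact*, a regulator of the response to amino acid shortage on Chr 18, had 7.90 and 9.05 FPKM in WT against 8.20 and 9.73 FPKM in TG, also with overlap. *Airn*, the paternally expressed long non-coding RNA that runs antisense to *Igf2r*, had 0.674 and 0.536 FPKM in WT against 0.329 and 0.488 FPKM in TG, with 13, 16, 8 and 11 reads. Its libraries did not overlap, but at this depth a log2 fold change of -0.29 had an SE of 0.44 and an adjusted p of 0.777 (limma). *Igf2r*, the receptor that clears insulin-like growth factor and shares 28396 bases with *Airn*, had 17.3 and 17.0 FPKM in WT against 9.30 and 11.2 FPKM in TG. It was lower without overlap, at a log2 fold change of -0.72, an SE of 0.20 and an adjusted p of 0.0789 (limma).

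The members not yet named were below the filter. The Peg3 domain of Chr 7 was nearly silent: *Peg3*, a large zinc finger gene, had 9, 28, 19 and 13 reads in WT 1, WT 2, TG 1 and TG 2, *Usp29*, a deubiquitinase, had 8 reads in all from WT 1 and TG 2, and *Zim1*, another zinc finger gene, was listed at 0. *Nap1l5*, a nucleosome assembly protein gene inside *Herc3*, had 3, 4, 2 and 5 reads. *Rasgrf1*, an exchange factor for Ras, had 3 reads in TG 1 alone. *Zdbf2*, the only member on Chr 1, had 1 read, in TG 1. For none of these could a difference between the genotypes be detected at this depth.

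Read by parental allele, the members differed in both directions. Of 12 tested members that are usually paternal, 7 had a log2 fold change below 0 and 5 above, with a median of -0.20 and extremes of -1.82 (*Mest*) and 2.04 (*Dlk1*). The libraries did not overlap for 4 lower and 4 higher paternal members. Of 11 tested members that are usually maternal, 3 were below 0 and 8 above, with a median of 0.22 and extremes of -0.53 (*Grb10*) and 2.29 (*H19*). Without overlap, 2 of the maternal members were lower and 5 were higher. The maternal counts include *Ube3a* and *Blcap*, which were higher without overlap. They are known as maternal from neurons and from a brain isoform, and not from fibroblasts. Over all genes tested, 57.5% had a log2 fold change above 0, and 20.3% were lower and 30.2% higher without overlap. Each group held 1 called gene, and no test between the groups was made.

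The differences between genotypes can be set against those between libraries of one genotype. For 13 of the 24 tested members, the log2 fold change was larger in size than both replicate differences, which held for 36.8% of all genes tested. The median difference between WT 1 and WT 2 was 0.41 on the log2(FPKM + 0.5) scale for the members and 0.24 for all genes, and that between TG 1 and TG 2 was 0.22 for the members and 0.23 for all genes. The WT libraries differed most in *Mirg*, *Cdkn1c* and *Tssc4*. Voom, the count method of limma, was run on the recovered reads, and weighs each value by its depth. By voom, 2 members were called lower (*Mest* and *Peg10*) and 3 higher (*H19*, *Dlk1* and *Rian*), beside 1.30% and 1.08% of all genes. The voom call of *Rian* rests on reads whose common factor is uncertain.

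**Figure D4:**
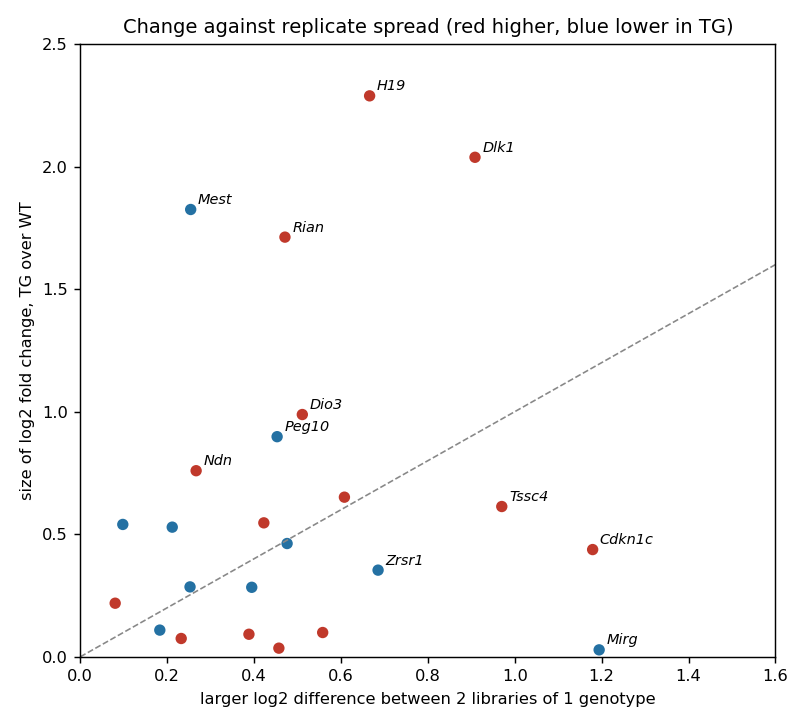
Size of the log2 fold change of TG over WT (y axis) against the larger of the log2 differences between the libraries of 1 genotype (x axis), both on the log2(FPKM + 0.5) scale, for the 24 imprinted genes tested; the dashed line marks equality, red points were higher and blue points lower in TG. The 13 genes above the line include *H19*, *Mest*, *Dlk1* and *Rian*, while *Mirg*, *Cdkn1c* and *Tssc4* lie below it on the right.

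A list of 37 further imprinted genes gave 36 in the matrix and 16 tested. Of these, 1 was called up-regulated and 0 down-regulated by limma (6 had an unadjusted p under 0.05, 4 of them lower, and voom called 1 higher and 0 lower). Over all genes tested, limma called 0.607% higher and 0.469% lower, 19.6% had an unadjusted p under 0.05, and voom called 1.08% higher and 1.30% lower. *Slc38a4*, a paternally expressed amino acid transporter of fetal tissues, was the one called, with 9.24 and 10.96 FPKM in WT against 45.3 and 48.8 FPKM in TG. Both TG libraries were far above both WT libraries, at a log2 fold change of 2.17, an SE of 0.19 and an adjusted p of 0.00032 (limma). *Commd1*, a copper and trafficking protein gene whose intron holds *Zrsr1*, had 34.7 and 27.0 FPKM in WT against 50.8 and 58.3 FPKM in TG (log2 fold change 0.82, SE 0.19, limma adjusted p 0.0433). *Commd1* is usually more active on the maternal copy and *Zrsr1*, which was not higher, on the paternal one. The median log2 fold change of the 16 genes was 0.23.

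Genes that set or keep imprints were measured too. Of 25 listed, 21 were tested and 0 were called by limma or by voom in either direction. At an unadjusted p under 0.05, 3 of the 21 passed, where 19.6% of all genes did, and these were named after their values were seen: *Zfp57* and the demethylase *Tet3* with log2 fold changes of -0.49 and -0.60, and the chromatin remodeller *Hells* with 0.53. Their adjusted p-values were 0.203, 0.207 and 0.195 (limma). *Zfp57*, whose product binds the hexamer shown above, had 19.7 and 22.2 FPKM in WT against 13.5 and 16.1 FPKM in TG. *Dnmt1*, which copies DNA methylation at division, had 78.9 and 86.7 FPKM in WT against 61.7 and 66.5 FPKM in TG, lower without overlap at a log2 fold change of -0.37, an SE of 0.17 and an adjusted p of 0.273 (limma). *Dppa3*, which guards imprints in the egg, and *Ctcfl*, a germ line relative of the insulator protein, were listed at 0.

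Of the markers of other lineages, *Sox9* alone was called, higher in TG, as were 0.607% of all genes tested. The summed level of the 3 cartilage markers was 2.30 to 2.95 FPKM in WT and 7.65 to 10.3 FPKM in TG, carried by *Sox9*, a transcription factor of cartilage and other lineages, with 1.90 and 2.44 FPKM in WT against 7.11 and 9.05 FPKM in TG. The log2 fold change of *Sox9* was 1.68 with an SE of 0.26 and an adjusted p of 0.0067 (limma). *Acan*, another cartilage marker, passed the filter only through TG (mean 0.292 FPKM in WT and 0.737 FPKM in TG). It was not called (limma adjusted p 0.559). *Col2a1*, the cartilage collagen, stayed at or below 0.302 FPKM in every library. The summed level of the 5 Schwann cell and melanocyte markers was 0.525 to 0.559 FPKM in WT and 2.33 to 2.94 FPKM in TG, carried by *Mitf*, with *Sox10* at 0. *Mitf* too passed the filter only through TG (mean 0.463 FPKM in WT and 2.06 FPKM in TG). It was not called (limma adjusted p 0.0592). The part of such differences in the levels of *H19*, *Dlk1* and *Rian* was not tested.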

How the data were processed

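RNA-seq of 2 WT and 2 TG libraries of immortalized TTF was analysed. Per the labels, polyadenylated RNA was converted to strand-specific cDNA with random primers, and the sequencing was paired-end. The authors used mm10 and Rsubread to align and count reads per gene, tested the counts with DESeq, and deposited the values used here as FPKM, 1 column per library. No column of another sample was present.

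For 15530 genes above 0, whole reads were recovered from the ratios of the FPKM between libraries (9829 genes exactly, 5701 within a close tolerance). A common factor had to be set from the gene length for 808 genes, so the reads of *Rian* are not printed. The recovered reads came to between 99.13% and 99.32% of the library totals of 9465712 to 14639946 reads, and WT 2 was 1.547 times as deep as WT 1. Floors computed from them cover counting error alone, and only in the libraries without a read.

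TG was compared with WT with the R package limma 3.58.1 (R 4.3.3), using a variance trend in eBayes and log2(FPKM + 0.5) as the response. The 11524 genes averaging 0.5 FPKM or more entered, and p-values were adjusted over all of them by the Benjamini-Hochberg method. Calls used the thresholds of the study, an adjusted p below 0.01 with a log2 fold change of 1 or more in either direction. The script was tested on simulated data. The alternatives were other pseudocounts, filters, scalings and variance models, a replicate block, voom on the recovered reads and each library left out in turn. Coordinates and sequences are those of RefSeq on GRCm38.p6, matched by symbol.

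All 40 members are accounted for, with full statistics for those with an adjusted p under 0.05 and for their domains. From the lists of other imprinted genes and imprint regulators, genes with an adjusted p under 0.05 are named, and *Igf2*, *Igf2r* and *Dnmt1* in any case. Other genes were named after their values were seen. The members and the lists were chosen with earlier results of these data known.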

Additional observations from a re-analysis of the deposited data

How the results depend on the processing

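The number of members called down-regulated (1, *Mest*) was 0 with all genes above 0 tested, 0 without a variance trend and 2 with voom, and 0 to 1 with 1 library left out. The number called up-regulated (1, *H19*) was 0 with all genes above 0 tested, 0 without a variance trend, 3 with voom and 3 at an adjusted p under 0.05, and 0 to 2 with 1 library left out, being 0 without WT 1 or WT 2. With the replicate number of the titles as a replicate block, 0 members were called lower and 1 higher, with an adjusted p of 0.0269 for *Mest* and 0.0088 for *H19*. Between libraries of the same number, the deviations correlated at -0.028 over 11524 genes. The titles do not say what a number marks, so whether it pairs the libraries is unknown. Over all genes tested, the calls were 54 lower and 70 higher in the main analysis, 1 and 0 with all genes above 0, 6 and 3 without a variance trend, 8 and 12 with the replicate block, 150 and 124 with voom, 1 and 0 without WT 1, 2 and 7 without WT 2, 47 and 47 without TG 1, and 41 and 66 without TG 2. Without 1 library an arm holds a lone library, assumed to vary like the others.

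The median log2 fold change of the members (0.083) was 0.018 with upper-quartile scaling, -0.0085 with quantile normalization, 0.017 with voom, and 0.0056 to 0.19 with 1 library left out. The median over all genes (0.071) moved alike, to 0.0082 with upper-quartile scaling, -0.013 with quantile normalization and 0.011 with voom. Of 309 values for single members under 13 alternatives, 280 kept their direction and side of the threshold, 10 lost and 4 gained a call, and 15 turned sign, all of these in genes that were not called. *Meg3* was -0.0028 with quantile normalization and -0.18 to 0.38 with 1 library left out. *Gnas* was -0.014 with quantile normalization and -0.10 to 0.29 with 1 library left out. *Impact* was -5.63e-05 with voom and -0.041 to 0.19 with 1 library left out. *Tnfrsf23* was -0.026 with upper-quartile scaling, -0.028 with quantile normalization, -0.064 with voom and -0.19 to 0.26 with 1 library left out. With 1 library left out, *Cdkn1c* ranged from -0.15 to 1.03 and *Mirg* from -0.63 to 0.57. The cause was not tested. The filter on FPKM left out 13 members with reads, most with few reads, and *Kcnq1ot1* with 95 to 120 reads over a long gene body.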
